A study of Homo sapiens with 6 samples.

Results

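The genes described here encode the molecular chaperones of the cytosol, nucleus and mitochondria, many of the cochaperones that work with them, and HSF1, the transcription factor that switches on many of these genes under stress. They were selected by symbol from the deposited gene table: the HSP90, HSP70, HSP110, HSP60, HSP10 and small heat shock protein families, the J-domain families DNAJA, DNAJB and DNAJC, the subunits of the cytosolic chaperonin TRiC/CCT, BAG1 to BAG6 and HSF1. The 7 chaperones of the lumen of the endoplasmic reticulum (ER) were left out of the selection. It held 78 of the 14959 rows of the table, with 77 different symbols, because HSPA14 is listed under 2 gene identifiers. Selection by symbol also took in genes with other roles, such as HSPB11, which encodes an intraflagellar transport protein, HSPBAP1, which encodes a protein that binds HSPB1, and the readthrough rows HSPE1-MOB4 and DNAJC25-GNG10. Another 6 members, DNAJB12, DNAJB14, DNAJC1, DNAJC14, DNAJC16 and DNAJC18, encode J-domain proteins known from the ER rather than from the cytosol or mitochondria.

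Chaperones bind proteins that are newly made, unfolded or misfolded and help them to fold, to reach their compartment or to be degraded. HSP70 proteins bind and release short unfolded stretches in a cycle driven by ATP, in which J-domain proteins deliver the client and start ATP hydrolysis, and BAG and HSP110 proteins speed up the exchange of nucleotide. HSP90 finishes the folding of kinases and receptors, chaperonins enclose a client in a barrel, and small heat shock proteins hold unfolded clients. HSF1 is kept inactive in unstressed cells and binds heat shock elements in the promoters of chaperone genes once it is released, and carcinoma cells often contain high levels of these proteins.

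The cell line was UM-SCC1, established from a human squamous cell carcinoma of the head and neck (HNSCC), and its RNA was sequenced 48 h after transfection. The cells had received either miR-204-5p mimics, short synthetic RNAs that act like the mature miRNA, or control mimics, and each group had 3 libraries from independent experiments. The labels give no other agent and no genetic change in either group, and the level that the miRNA reached in the cells was not analysed here. The mature miRNA, as listed by RefSeq, is shown with its seed (bases 2 to 8) in capitals, since the sites printed further on pair with these bases:
hsa-miR-204-5p: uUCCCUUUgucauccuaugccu

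Expression was given as FPKM, the fragments per kilobase of transcript normalised to the depth of each library by the authors, so that levels are per length. Setting levels of different genes side by side relies on the transcript length behind each value, which was not tested here. Depth was inferred from low values to be 13.1 to 16.5 M fragments per library. Spearman correlations between libraries across genes were 0.9899 to 0.9908 within groups and 0.9733 to 0.9756 between groups. The squamous epithelial markers KRT5, KRT14, KRT17, TP63 and EPCAM had 23.9 to 283 FPKM in the 6 libraries, whereas PTPRC (leukocytes) and PECAM1 (endothelium) did not exceed 0.546 FPKM and COL1A1 (fibroblasts) had 8.04 to 10.5 FPKM. Of the epithelial markers, 4 of 5 were lower with miR-204-5p mimics: TP63 (27.4 against 55.9 FPKM, log2 difference -1.01, limma adjusted p = 0.000276), KRT14 (-0.51, limma adjusted p = 0.000229), KRT5 (-0.43, limma adjusted p = 0.00482) and EPCAM (-0.21, limma adjusted p = 0.0477). The part of these markers in the results was not tested. In RNA from whole cultures, fewer cells with a transcript and less of it per cell cannot be told apart.

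The chaperone genes as a whole did not move in 1 direction with miR-204-5p mimics. Both cytosolic HSP90 genes, both genes of the mitochondrial chaperonin and 6 of the 8 TRiC/CCT subunit genes were higher with miR-204-5p mimics. HSF1, HSPB1 and BAG3 were lower, BAG2 was higher, and the 38 J-domain genes moved both ways, 8 lower and 5 higher. With limma's test on log2(FPKM + 1) and an adjusted p under 0.05 over all genes, 33 of the 78 members were called, 14 lower and 19 higher, and 45 were not called. These shares, 42.3% called, 17.9% lower and 24.4% higher, lay near those of the whole table, in which 40.8% of the genes were called, 16.8% lower and 23.9% higher. For 41 members, or 52.6%, the 3 values of a group lay wholly above or below those of the other, which was so for 53.6% of all genes. The median log2 difference, mimics minus control mimics, was 0.02 over the members and 0.03 over all genes. A mean of at least 1 FPKM was reached by 68 members, which held all 33 calls, and 2 of the 10 others, HSPE1-MOB4 and DNAJC5G, were listed at 0 in at least 1 library. Members together took 1.33, 1.30 and 1.32% of the FPKM sum with miR-204-5p mimics and 1.15, 1.19 and 1.22% with control mimics, and these shares did not overlap. Such a share is weighted to the most abundant members, and the median member differed no more than the median gene. Leaving out each library in turn, 29 of the 33 calls held in every fit, and those of DNAJB2, DNAJC18, HSPA9 and HSPBP1 did not.

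**Figure D1:**
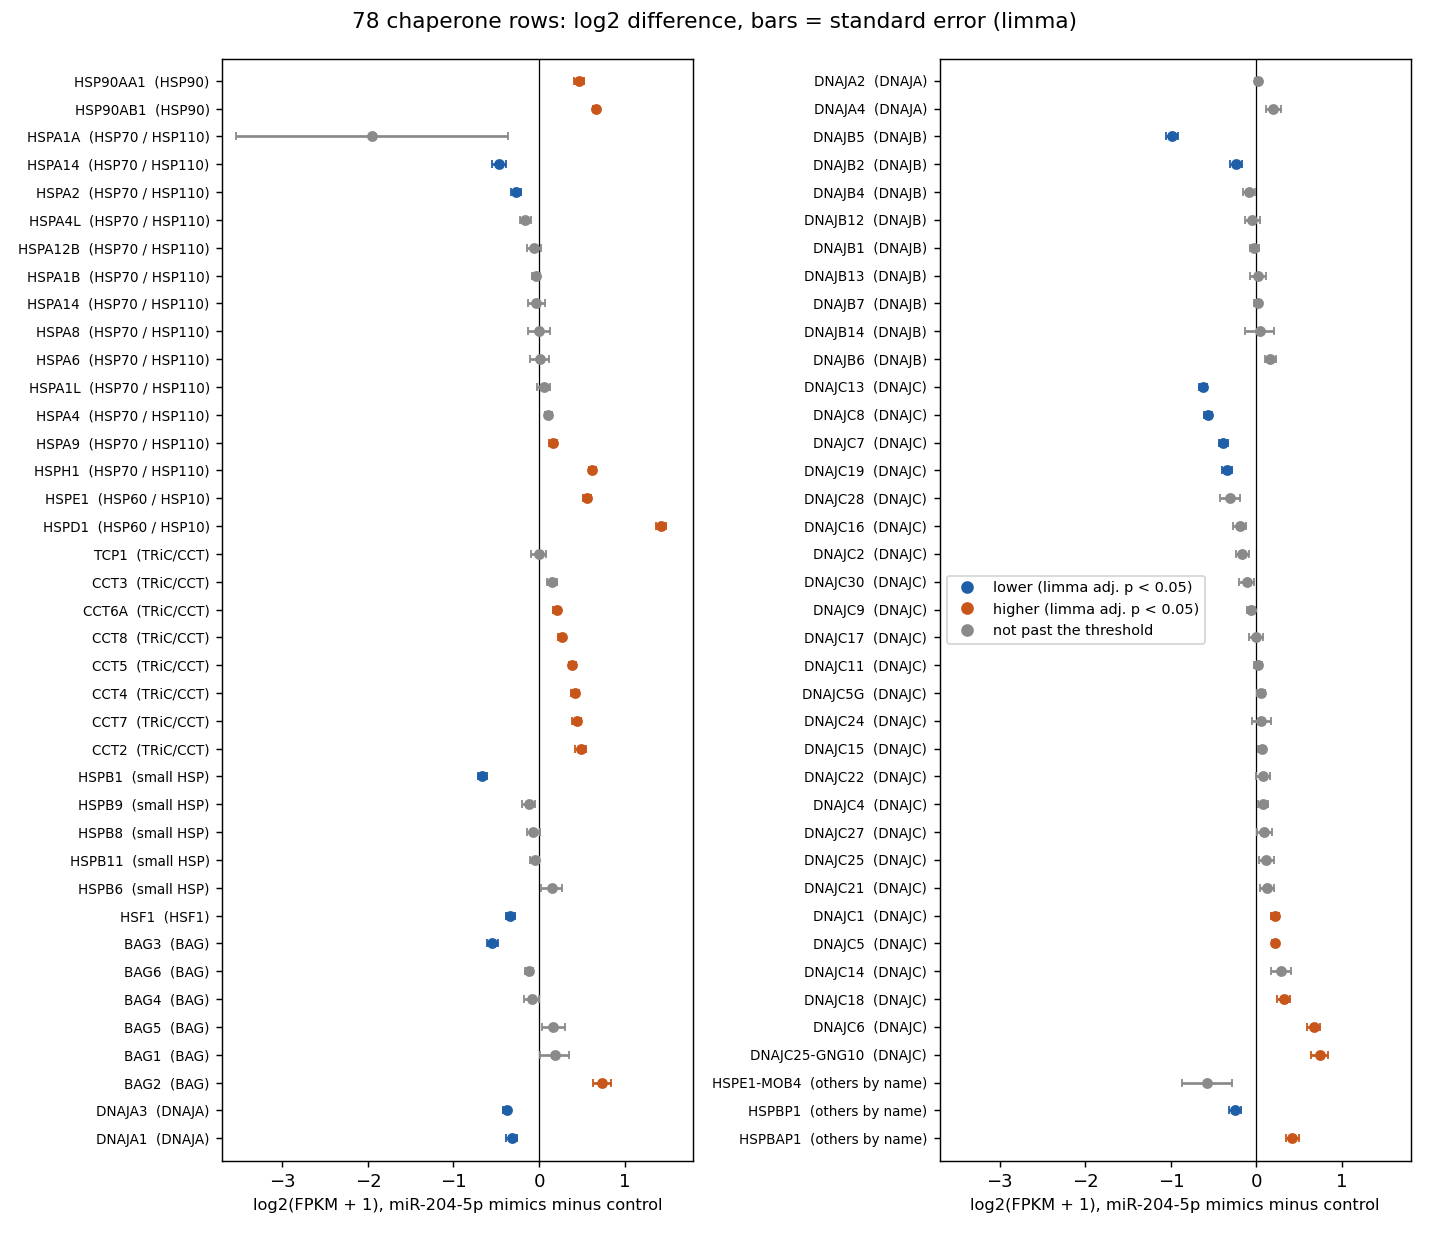
Difference in log2(FPKM + 1) between miR-204-5p mimics and control mimics for each of the 78 rows, grouped by family; points are the differences and bars are standard errors from limma, with blue for lower, orange for higher and grey for rows that were not called. HSPD1 lies farthest to the right at 1.42 and DNAJB5 is the lowest called gene at -0.99, while HSPA1A has by far the widest error, 1.59.

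HSP90AB1 (ENSG00000096384) and HSP90AA1 (ENSG00000080824) encode the constitutive and the stress-inducible form of cytosolic HSP90. HSP90AB1, at 44246166 to 44253888 on the plus strand of chromosome 6 (GRCh38), was the most abundant member. Its levels were 664, 670 and 664 FPKM with miR-204-5p mimics and 412, 417 and 430 FPKM with control mimics. All 3 libraries with miR-204-5p mimics lay above all controls, a 1.59-fold difference in mean FPKM (666 ± 3.76 against 420 ± 9.41, SD, n = 3; log2 difference 0.67, standard error 0.0354, limma adjusted p = 7.36e-05). HSP90AA1, at 102080738 to 102087191 on the minus strand of chromosome 14, had 371, 373 and 329 FPKM against 251, 253 and 272 FPKM. Here too the groups were separate, with a log2 difference of 0.46 (standard error 0.0614, limma adjusted p = 0.00160). HSP90AB1 exceeded HSP90AA1 in every library, 1.87 ± 0.129 times with miR-204-5p mimics and 1.62 ± 0.0342 times with control mimics. This ratio reached the smallest p that an exact permutation test of 3 against 3 libraries allows (two-sided p = 0.1). The sum of both genes was 1035, 1043 and 993 FPKM against 663, 670 and 702 FPKM. Since each gene was higher in all libraries with miR-204-5p mimics, the groups of the sum had to be separate. The exact permutation test of the sum was therefore bound to give that smallest value and adds no evidence. Over their coding sequences the genes were identical at 75.5% of aligned bases, and no 75-base stretch of HSP90AA1 occurred in HSP90AB1.

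HSPD1 (ENSG00000144381) and HSPE1 (ENSG00000115541) encode HSP60 and HSP10, the barrel and the lid of the chaperonin that folds proteins in the mitochondrial matrix. They lie head to head on chromosome 2, HSPD1 at 197486581 to 197500047 on the minus strand and HSPE1 at 197499994 to 197503457 on the plus strand, and their listed transcripts share 54 bases of genome. On the log2(FPKM + 1) scale HSPD1 had the largest difference of the called members in either direction, although with a pseudocount of 0.1 that of DNAJB5 was larger in size (-1.56 against 1.43). Its levels were 234, 235 and 216 FPKM with miR-204-5p mimics and 79.9, 83.5 and 90.9 FPKM with control mimics. Every library of the first group thus exceeded every control by a wide margin, 2.70-fold in mean FPKM, with a log2 difference of 1.42 (standard error 0.0596, limma adjusted p = 4.46e-05). HSPE1 rose less, from 70.2, 68.3 and 76.0 FPKM with control mimics to 108, 106 and 104 FPKM, 1.48-fold (log2 difference 0.56, standard error 0.0470, limma adjusted p = 0.000290). The 2 genes therefore did not keep their ratio. HSPD1 stood at 2.17, 2.22 and 2.07 times HSPE1 with miR-204-5p mimics and at 1.14, 1.22 and 1.20 times HSPE1 with control mimics, groups that did not overlap (exact permutation test, two-sided p = 0.1, the smallest possible). The readthrough row HSPE1-MOB4, which overlaps HSPE1 on the same strand, was listed at 0 in all libraries with miR-204-5p mimics and at 0.380, 1.43 and 0 FPKM in the controls (limma adjusted p = 0.165, and 0.0342 without control mimics replicate 3).

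**Figure D2:**
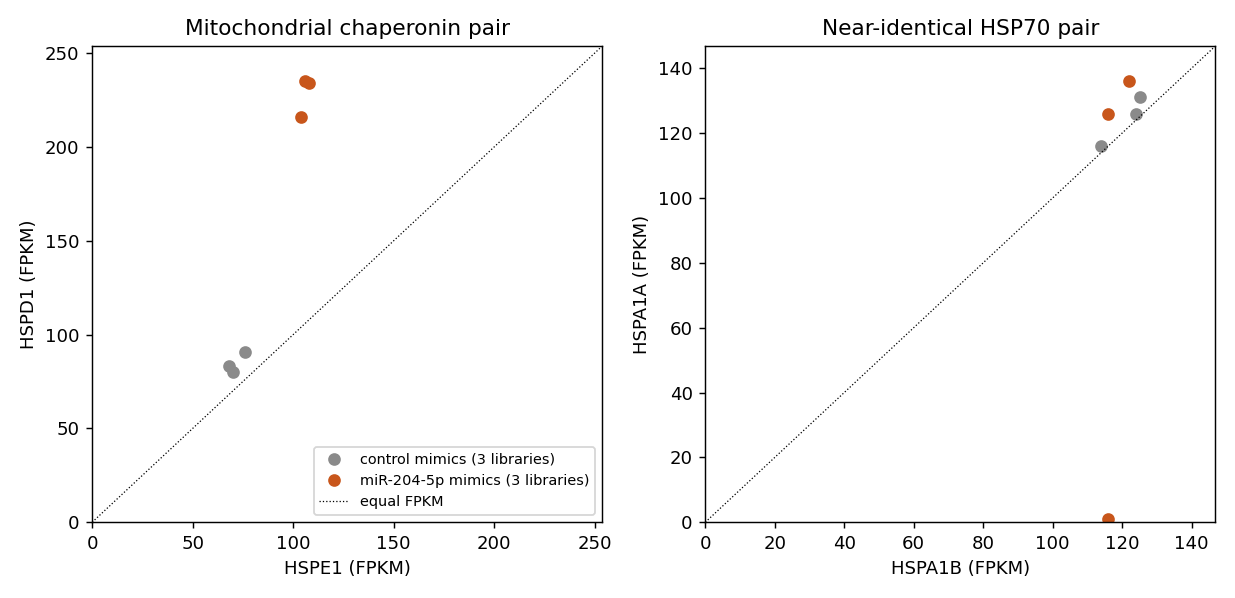
FPKM of HSPD1 against HSPE1 (left) and of HSPA1A against HSPA1B (right), 1 point per library, with grey for control mimics, orange for miR-204-5p mimics and a dotted line at equal FPKM. On the left the mimic libraries leave the line, at 216 to 235 FPKM of HSPD1 for 104 to 108 FPKM of HSPE1; on the right 5 libraries lie near the line and 1 has 0.945 FPKM of HSPA1A for 116 FPKM of HSPA1B.

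TRiC/CCT is the cytosolic chaperonin that folds actin, tubulin and other proteins, and each of its rings holds every one of the 8 subunits once. Transcripts of 6 subunits were higher with miR-204-5p mimics, none was lower, and the median log2 difference of the 8 was 0.33. CCT2 had the largest difference, with 68.1, 68.5 and 60.6 FPKM against 44.4, 45.4 and 50.2 FPKM (log2 difference 0.49, standard error 0.0674, limma adjusted p = 0.00196). Its groups were separate. Log2 differences of the other called subunits were 0.44 for CCT7, 0.42 for CCT4, 0.39 for CCT5, 0.27 for CCT8 and 0.21 for CCT6A, with limma adjusted p from 0.000519 (CCT4) to 0.0108 (CCT6A). These 5 genes also had separate groups. CCT3 had a log2 difference of 0.15 with limma adjusted p = 0.0897, and without miR-204-5p mimics replicate 3 its difference was 0.20 with limma adjusted p = 0.0233. TCP1, which encodes the alpha subunit, had 60.4, 64.9 and 58.6 FPKM with miR-204-5p mimics and 59.0, 56.1 and 69.9 FPKM with control mimics, with overlapping groups and a log2 difference of -0.00 (standard error 0.0863, limma adjusted p = 0.978). Summed over the 8 subunits, the level was 1008, 986 and 935 FPKM against 775, 768 and 826 FPKM, a ratio of means of 1.24 with no overlap (exact permutation test, two-sided p = 0.1, the smallest possible). The sum is made of the same values as the subunits, of which 6 were already separate, so it adds no separate evidence. Subunit levels were unequal in both groups, with control means of 46.7 FPKM (CCT2) to 154 FPKM (CCT7). The highest stood at 3.41 ± 0.245 times the lowest with miR-204-5p mimics and at 3.29 ± 0.0645 times with control mimics, a difference that the exact permutation test did not separate (two-sided p = 0.5). CCT7 was the highest in every library, but the lowest was CCT2 with control mimics and TCP1 with miR-204-5p mimics. The ratio thus does not follow 1 pair of genes and does not show that subunit proportions were kept. CCT8 is listed with a transcript of 556 bases, where the longest of the gene has 2005.

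**Figure D3:**
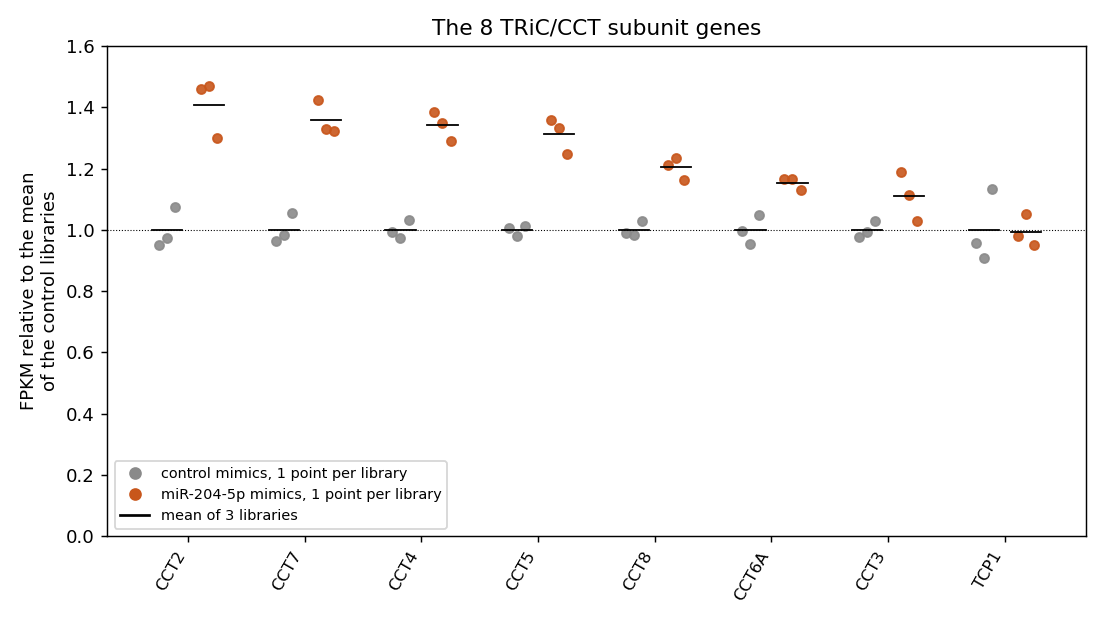
FPKM of each TRiC/CCT subunit gene divided by the mean of its 3 control libraries, 1 point per library, with grey for control mimics, orange for miR-204-5p mimics and black lines at the means. The orange and grey points are separate for CCT2, CCT7, CCT4, CCT5, CCT8 and CCT6A and overlap for CCT3 and TCP1.

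The HSP70 and HSP110 genes did not share a direction, with 2 of 13 rows higher, 2 lower and 9 not called. This was 15.4% in each direction, where 23.9% of all genes were higher and 16.8% lower. HSPH1 (ENSG00000120694; chromosome 13, 31134974 to 31162388, minus strand), an HSP110 protein that acts as nucleotide exchange factor of HSP70, had 26.6, 27.6 and 26.4 FPKM with miR-204-5p mimics and 17.2, 16.4 and 17.7 FPKM with control mimics. Its groups were far apart, 1.57-fold (log2 difference 0.62, standard error 0.0438, limma adjusted p = 0.000166). HSPA9, the HSP70 of the mitochondrial matrix, had 87.7, 89.7 and 86.1 FPKM against 78.1, 74.2 and 82.4 FPKM. That difference was small though separate (log2 difference 0.17, limma adjusted p = 0.0283), and it lost its call when FPKM was scaled to equal sums (0.12, limma adjusted p = 0.0683) or without control mimics replicate 2 (0.13, limma adjusted p = 0.0791). It was also lost without control mimics replicate 1 or miR-204-5p mimics replicate 1 or 2, with limma adjusted p from 0.0654 to 0.0865. HSPA14, which encodes a ribosome-associated HSP70 and lies on chromosome 10, was lower in 1 of its rows (ENSG00000187522, with a listed transcript of 1904 bases; 4.34 ± 0.284 against 6.39 ± 0.545 FPKM, SD, n = 3; log2 difference -0.47, limma adjusted p = 0.00391), while the other row (ENSG00000284024, 4092 bases) had 3.22 ± 0.239 against 3.32 ± 0.488 FPKM. Both rows overlap on the plus strand. HSPA2, a form best known from the testis, was also lower (log2 difference -0.26, limma adjusted p = 0.0120).

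The abundant HSP70 genes of the cytosol were not called. HSPA8, the constitutive form, had 202, 204 and 195 FPKM with miR-204-5p mimics and 159, 224 and 226 FPKM with control mimics. Control mimics replicate 1 lay below and the other controls above all libraries with miR-204-5p mimics, so the log2 difference was 0.00 (standard error 0.133, limma adjusted p = 1.00). Without that library it was -0.17 with limma adjusted p = 0.0308. HSPA1A and HSPA1B, the stress-inducible genes, lie near each other on chromosome 6 (31815464 to 31817946 and 31827735 to 31830255, plus strand), and their coding sequences were identical at 1922 of 1926 bases. With sequences this alike, reads can be split between them and both values are uncertain. Of the 75-base stretches of HSPA1A, 71.2% also occurred in HSPA1B. That length was a chosen window, and the share of reads that match both genes was not tested. HSPA1B had 116, 116 and 122 FPKM against 114, 124 and 125 FPKM, overlapping groups with a log2 difference of -0.04 (limma adjusted p = 0.594). HSPA1A had 126, 0.945 and 136 FPKM with miR-204-5p mimics and 116, 126 and 131 FPKM with control mimics. Only miR-204-5p mimics replicate 2 was low, and the log2 difference of -1.95 (standard error 1.59, limma adjusted p = 0.372) was 0.08 without that library. HSPA1B showed no drop in the same library, and the sum of both genes there was 117 FPKM against 230 to 258 FPKM in the other 5. HSPA6, an HSP70 gene induced under strong stress, stayed at 0.203 to 0.622 FPKM in the 6 libraries.

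**Figure D4:**
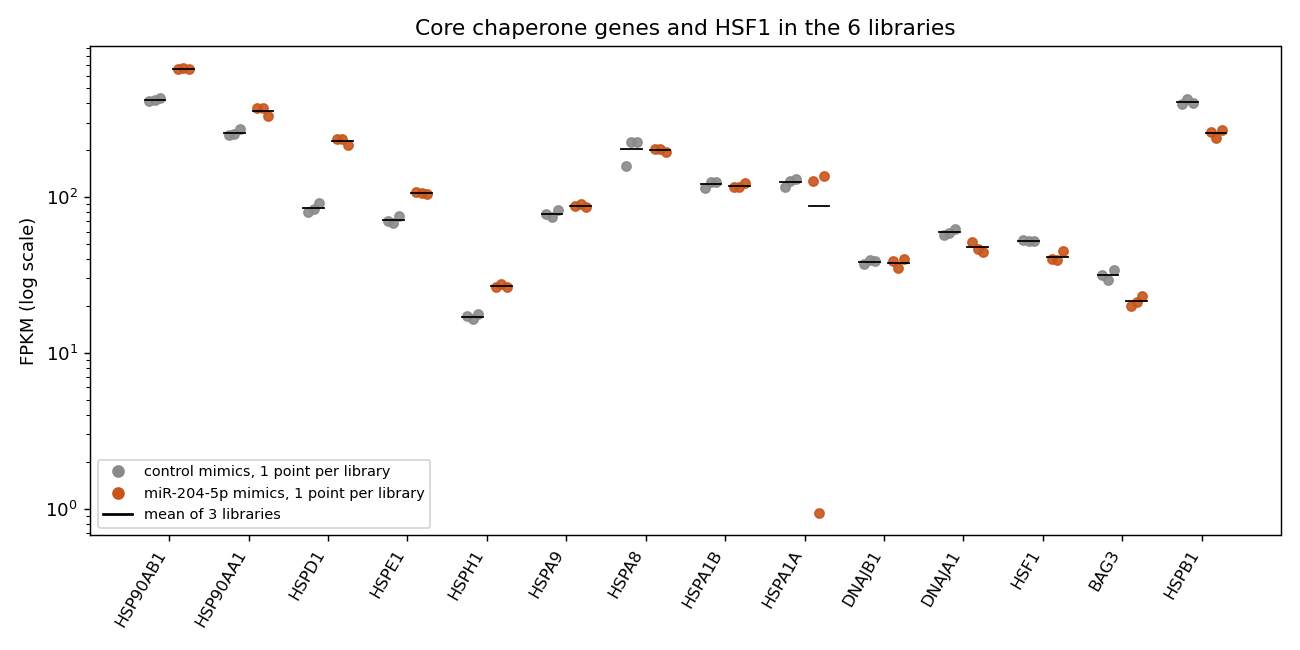
FPKM on a log scale of 13 chaperone and cochaperone genes and HSF1, 1 point per library, with grey for control mimics, orange for miR-204-5p mimics and black lines at the means of 3 libraries. Groups are separate and higher with miR-204-5p mimics for HSP90AB1, HSP90AA1, HSPD1, HSPE1, HSPH1 and HSPA9, overlap for HSPA8, HSPA1B, HSPA1A and DNAJB1, and are separate and lower for DNAJA1, HSF1, BAG3 and HSPB1.

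HSF1 itself was lower. The gene (ENSG00000185122; chromosome 8, 144291591 to 144314668, plus strand) had 40.1, 39.4 and 44.8 FPKM with miR-204-5p mimics and 52.6, 52.5 and 52.4 FPKM with control mimics. No library with miR-204-5p mimics reached the controls (log2 difference -0.34, standard error 0.0535, limma adjusted p = 0.00332). HSPB1 (HSP27; ENSG00000106211; chromosome 7, 76302544 to 76304295, plus strand), the abundant small heat shock protein that holds unfolded clients and binds actin filaments, had 262, 239 and 267 FPKM against 395, 424 and 400 FPKM. It fell by 0.66 on the log2 scale, with separate groups (standard error 0.0545, limma adjusted p = 0.000280). The other 4 rows named as small heat shock proteins were not called, and HSPB6 and HSPB9 stayed under 1 FPKM.

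Of the 6 BAG genes, whose products bind the ATPase domain of HSP70, 1 was lower, 1 was higher and 4 were not called. The share was 16.7% in each direction, against 16.8% lower and 23.9% higher over all genes. BAG3 (ENSG00000151929; chromosome 10, 119651370 to 119677819, plus strand), which links HSP70 and small heat shock proteins to selective autophagy, had 20.1, 21.2 and 23.0 FPKM with miR-204-5p mimics and 31.8, 29.4 and 33.9 FPKM with control mimics. Its groups did not overlap (log2 difference -0.54, standard error 0.0689, limma adjusted p = 0.00136). BAG2 (ENSG00000112208; chromosome 6, 57172326 to 57189833, plus strand), an inhibitor of the ubiquitin ligase STUB1, went the other way at a low level, with 5.11, 4.48 and 4.17 FPKM against 2.72, 2.02 and 2.32 FPKM (1.95-fold, log2 difference 0.74, standard error 0.102, limma adjusted p = 0.00196). BAG6, which handles tail-anchored membrane proteins, had a log2 difference of -0.12 with limma adjusted p = 0.0702, and passed the threshold once FPKM was scaled to equal sums (-0.16, limma adjusted p = 0.0205).

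J-domain genes made up 38 of the members, with 8 lower (21.1%), 5 higher (13.2%) and 25 not called. Over all genes 16.8% were lower and 23.9% higher. The higher rows included the readthrough row DNAJC25-GNG10. Among the DNAJA genes, which encode the J-domain proteins closest to bacterial DnaJ, DNAJA1 had 51.4, 46.6 and 44.3 FPKM with miR-204-5p mimics and 57.0, 58.4 and 62.5 FPKM with control mimics, groups without overlap (log2 difference -0.32, standard error 0.0643, limma adjusted p = 0.00870). DNAJA3, its relative in the mitochondria, was lower by a similar size (-0.38, limma adjusted p = 0.000593), and DNAJA2 and DNAJA4 were not called. DNAJB1, the main stress-inducible partner of HSP70, had 38.7, 35.1 and 39.8 FPKM against 37.3, 39.6 and 38.6 FPKM, with overlapping groups and a log2 difference of -0.02 (standard error 0.0555, limma adjusted p = 0.761). DNAJB5 (ENSG00000137094; chromosome 9, 34989641 to 34998431, plus strand) was the called member with the largest decrease, at 0.918, 0.685 and 0.845 FPKM against 2.47, 2.61 and 2.71 FPKM. Its means stood at a ratio of 0.315 and its groups were separate (log2 difference -0.99, standard error 0.0690, limma adjusted p = 0.000164), although its level was low in both. DNAJB2, known from neurons, was lower by 0.24 (limma adjusted p = 0.0379), a call that was kept without miR-204-5p mimics replicate 1 and lost without any other library (limma adjusted p from 0.0702 to 0.113).

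DNAJC proteins share the J domain and little else, and their genes moved in both directions, with 4 of 25 lower, 5 higher and 16 not called. Both shares lay slightly below those of all genes, of which 16.8% were lower and 23.9% higher. DNAJC13 (ENSG00000138246; chromosome 3, 132417526 to 132539032, plus strand), an endosomal protein, had 10.1, 10.2 and 9.70 FPKM with miR-204-5p mimics and 16.5, 15.9 and 15.4 FPKM with control mimics. The groups were well apart (log2 difference -0.62, standard error 0.0460, limma adjusted p = 0.000193). DNAJC8, a protein associated with splicing complexes, had 30.8, 31.0 and 28.4 FPKM against 43.3, 45.3 and 46.3 FPKM (log2 difference -0.57, standard error 0.0490, limma adjusted p = 0.000329), and is listed with a transcript of 483 bases where the longest has 1759. DNAJC7, which binds both HSP70 and HSP90, and DNAJC19, a subunit of the mitochondrial import motor, were lower by 0.39 and 0.35 (limma adjusted p = 0.00130 and 0.00470). On the higher side, DNAJC6 (auxilin), which strips clathrin from vesicles together with HSPA8, had 2.93, 3.08 and 3.21 FPKM against 1.68, 1.36 and 1.66 FPKM (log2 difference 0.67, standard error 0.0725, limma adjusted p = 0.000765), and is listed with a transcript of 1621 bases where the longest has 5916. DNAJC25-GNG10 had 17.5, 14.8 and 17.5 FPKM against 9.49, 8.52 and 10.6 FPKM (log2 difference 0.74, standard error 0.0968, limma adjusted p = 0.00156). This readthrough row overlaps GNG10, which differed by 0.59 (limma adjusted p = 0.000912), and DNAJC25, which differed by 0.12 (limma adjusted p = 0.327), so its value cannot be assigned to the J-domain gene. DNAJC5, the cysteine string protein of vesicles, and DNAJC1 each differed by 0.22 (limma adjusted p = 0.00318 and 0.00989). DNAJC18 differed by 0.32 (limma adjusted p = 0.0162), is listed with a transcript of 451 bases that is annotated as a target of nonsense-mediated decay, and its limma adjusted p was 0.0506 without miR-204-5p mimics replicate 2 and 0.0526 without control mimics replicate 2.

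Outside these families, HSPBP1, a nucleotide exchange factor of HSP70, was lower by 0.25 (limma adjusted p = 0.0306), and HSPBAP1 was higher by 0.42 (limma adjusted p = 0.00573). The call of HSPBP1 was kept without control mimics replicate 3 and lost without any other library (limma adjusted p from 0.0641 to 0.0845). Of the 8 members that work in mitochondria, 3 were higher (HSPD1, HSPE1 and HSPA9), 2 were lower (DNAJA3 and DNAJC19) and 3 were not called. This was 37.5% higher and 25.0% lower, against 23.9% and 16.8% of all genes. The median log2 difference of the 8 members was 0.04.

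The partners of these chaperones were counted in the same fit, and the shares called in the lists of cochaperones, chaperonin cofactors and mitochondrial genes lay near or below those of all genes (16.8% lower, 23.9% higher). Among 24 cochaperones of HSP70 and HSP90, 6 were higher (25.0%) and 3 lower (12.5%), with a median of 0.05. FKBP4, an HSP90 cochaperone of steroid receptors, was the highest called gene among them (67.2 ± 1.36 against 41.1 ± 1.02 FPKM, SD, n = 3; log2 difference 0.70, limma adjusted p = 6.88e-05), and UNC45A, a chaperone of myosin, was the lowest (34.4 ± 0.333 against 45.9 ± 0.935 FPKM; -0.40, limma adjusted p = 0.000283). Of 12 genes for prefoldin and other chaperonin cofactors, which hand clients to TRiC/CCT, 3 were higher (25.0%) and none was lower, from 0.23 for PFDN4 (limma adjusted p = 0.0163, and 0.0536 without control mimics replicate 1) to 0.93 for VBP1 (limma adjusted p = 0.00723). Of 15 genes for mitochondrial chaperones and quality control, 3 were higher (20%) and none was lower, among them TRAP1, the mitochondrial HSP90 (95.4 ± 0.527 against 73.3 ± 1.31 FPKM; 0.38, limma adjusted p = 0.000282), and PAM16, of the import motor (0.56, limma adjusted p = 0.000909). Of 4 other heat shock factor genes and their binding partners in the table, HSBP1, a negative regulator of HSF1, and HSF2BP were higher (0.40 and 0.29, limma adjusted p = 0.000927 and 0.0119). HSBP1 had means of 19.4 against 14.5 FPKM, whereas HSF2BP was very low in both groups (0.542 against 0.259 FPKM). Of the 7 ER chaperones left out of the selection, only DNAJB9 was called, as higher (0.35, limma adjusted p = 0.0129), and their median was 0.01.

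Genes that textbooks describe as induced by HSF1 were split. Of 25 such genes, 15 of them members, 9 were higher (36%), 3 were lower (12.0%) and 13 were not called, with a median log2 difference of 0.07. Over all genes 23.9% were higher and 16.8% lower. For genes with a mean of at least 1 FPKM, as 23 of the 25 had, these shares were 27.7% and 20.1%. The higher ones included HSPD1, HSPE1, HSPH1, HSP90AA1 and HSP90AB1, whereas HSPB1, BAG3 and DNAJA1 were the 3 lower ones, and HSPA1B, HSPA8 and DNAJB1 were not called. To show which promoters hold the letters of a heat shock element, windows of RefSeq (GRCh38.p14) from 250 bases before to 50 bases after each annotated start were searched on both strands for 3 alternating GAA and TTC units, starting with either, with any 2 bases between units. Matches can overlap. Windows were found for 68 of the 78 members, and 7 of them, or 10.3%, held a match in at least 1 window, against 58 of the 11461 genes of the table with a window, or 0.506%. Across all 35116 windows of RefSeq the share was 0.490%. The 7 genes were HSPD1, HSP90AB1 and HSP90AA1, which were higher, DNAJA1, which was lower, and HSPA8, DNAJB6 and HSPA6, which were not called. A match is a description of the letters and does not show binding, and no match says only that these letters are absent from the window. The matches in promoters of the 5 genes of the group with at least 10 FPKM are shown on the strand of the gene, with the motif in capitals, at chr2:197500063-197500090 (HSPD1), chr6:44247770-44247798 and chr6:44247823-44247851 (HSP90AB1), chr14:102087112-102087140 (HSP90AA1), chr11:123062346-123062374 and chr11:123062171-123062199 (HSPA8) and chr9:33025268-33025296 (DNAJA1):
HSPD1: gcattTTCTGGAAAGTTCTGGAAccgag
HSP90AB1, first: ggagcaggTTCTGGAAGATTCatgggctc
HSP90AB1, second: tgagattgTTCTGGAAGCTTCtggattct
HSP90AA1: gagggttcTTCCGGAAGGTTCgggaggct
HSPA8, first: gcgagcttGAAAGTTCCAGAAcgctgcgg
HSPA8, second: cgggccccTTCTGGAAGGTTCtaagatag
DNAJA1: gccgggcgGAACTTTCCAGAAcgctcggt

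In HSPD1 both motifs overlap in 1 run, which begins 245 bases before the start. The motifs of HSP90AB1 begin 165 and 112 bases before the start, that of HSP90AA1 88 bases before it, those of HSPA8 230 and 55 bases before it, and that of DNAJA1 3 bases after it. For each of these genes except HSPA8, that start lies within the transcript listed in the deposited table, which begins further upstream.

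Because a miRNA acts through its seed, every gene was searched in its longest 3′UTR of GENCODE 29 for AAAGGGAA (8mer), AAAGGGA without the final A (7mer-m8) and AAGGGAA without the first A (7mer-A1). At least 1 match was found for 22 of the 78 members, of which 4 were lower and 5 higher. By the best match of a member, an 8mer was found for 7 members (2 lower, 1 higher), a 7mer-m8 for 7 (0 lower, 1 higher) and a 7mer-A1 for 8 (2 lower, 3 higher), and no match for 56 (10 lower, 14 higher). In the whole table, 33.5% of the genes with an 8mer were lower and 13.3% higher, against 13.4% lower and 27.1% higher among genes with no match. For a 7mer-m8 the shares of the whole table were 25.5% lower and 16.6% higher, for a 7mer-A1 22.3% and 19.1%, and for any match 27.0% and 16.4%. Among the members 18.2% of those with a match were lower and 17.9% of those without, and HSF1, HSPB1 and BAG3 had none. These 2 shares depend on the use of the longest 3′UTR. DNAJC6 and DNAJC18, which were higher, had matches only outside the listed transcript. The same was true of DNAJC16, DNAJB4, HSPA4L and DNAJC21, which were not called. The 4 lower members with a match, all within the listed transcript, were DNAJC13, DNAJC7, DNAJB5 and HSPA2. To set lower beside higher members, the sites of the first 3 and those of HSPH1 and BAG2, which were higher, are shown on the strand of the gene with the match in capitals. On GRCh38 they lie at chr3:132538996-132539019 (DNAJC13, exon 56), chr17:41976559-41976582 (DNAJC7, exon 14), chr9:34997797-34997819 and chr9:34998035-34998057 (DNAJB5, exon 4), chr13:31137131-31137154 (HSPH1, exon 16) and chr6:57186222-57186244 (BAG2, exon 3), each also within the transcript listed in the table:
DNAJC13, 8mer: ttaaaaatAAAGGGAAttgactgc
DNAJC7, 8mer: ggtggagcAAAGGGAAccaatgcc
DNAJB5, first 7mer-A1: aggataagAAGGGAAagttcaca
DNAJB5, second 7mer-A1: tcatcaggAAGGGAAagggcttt
HSPH1, 8mer: tgatcctaAAAGGGAAaattgcct
BAG2, 7mer-A1: agactgtgAAGGGAAgagaacaa

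DNAJC13 and HSPH1 both carry an 8mer and differed by -0.62 and 0.62, so members with the same class of match stood at both ends. DNAJB5 and BAG2, both with the 7mer-A1, differed by -0.99 and 0.74. A match was not tested as a site of miR-204-5p.

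**Figure D5:**
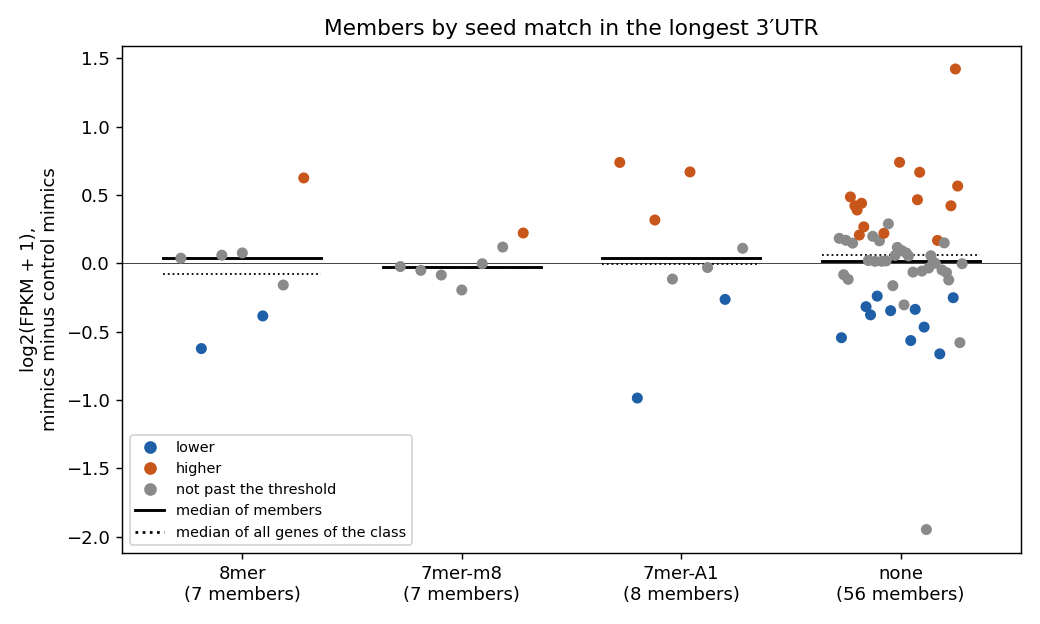
Difference in log2(FPKM + 1) of the 78 members by the best seed match in the longest 3′UTR, 1 point per member in alphabetical order within a class, with blue for lower, orange for higher and grey for not called; solid lines are medians of the members and dotted lines medians of all genes of the class. The 8mer class runs from -0.62 (DNAJC13) to 0.62 (HSPH1), and the median of its members is 0.04 against -0.08 for all genes with an 8mer. With a mean of at least 1 FPKM required, which leaves 6 of the 7 members, these medians are -0.06 and -0.14.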

How the data were processed

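Libraries were prepared from total RNA with the TruSeq RNA kit for sequencing on Illumina HiSeq X. FPKM values per gene and library were computed and deposited by the authors for 14959 genes, each with 1 listed transcript, and whether a value was computed from that transcript alone was not tested. The submitters' notes name HISAT2, StringTie and hg38 with no versions, and the annotation and the use of strand in counting were not given in the sources used here. Overlapping genes can therefore share reads: 8 of the 78 members overlap another row on the same strand and 17 on the opposite strand, and the listed transcript is the longest of its gene for 42. The deposited table also holds the authors' own log2 ratios, p-values and FDR from edgeR, which were not used.

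Because the table holds no counts, log2(FPKM + 1) was compared with limma 3.58.1 in R 4.3.3 (lmFit and eBayes with trend, two-sided, no filter, no scaling), with Benjamini-Hochberg adjustment over all 14959 genes and a threshold of 0.05. This scale understates differences of genes with low FPKM. Depth was inferred from genes with 1 transcript, by the step in FPKM that 1 fragment makes (0.0608 to 0.0766 FPKM on 1 kb), which accounted for 26.9 to 30.5% of the low values as whole steps (4.91 to 5.25% at other steps), so counts were not recovered. Ratios and sums were compared by exact permutation tests, whose smallest two-sided p is 0.1 here. Seed matches and positions came from GENCODE 29 (GRCh38, listed coordinates equal for 77 members), and miRNA and promoter sequences from RefSeq (GRCh38.p14). Python (3.11.15) with pandas (2.3.3) and scipy (1.17.1) did the rest.

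The members and gene lists were chosen with earlier results of these data known. Values per library are given for called members with a mean of at least 1 FPKM and an absolute log2 difference of at least 0.5 and for 15 core members. From the lists of other genes, the lowest and highest called gene were named.

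Alternatives were a minimum mean of 1 FPKM, a pseudocount of 0.1, scaling to equal sums or medians, quantile normalization, the replicate number as a block and each library left out in turn.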

Additional observations from a re-analysis of the deposited data

How the results depend on the processing

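The 29 calls kept in all 6 fits without a library included HSPD1, HSPE1, both HSP90 genes, 6 TRiC/CCT subunits, HSPH1, HSF1, HSPB1 and BAG3. Over 46 rows of members run one by one under up to 12 alternatives, 502 of 550 values kept their direction and side of the threshold, 20 lost the call, 8 gained it and 20 turned in sign, all 20 in HSPA8, TCP1, DNAJB1, HSPA1A, HSPA6 and the row ENSG00000284024 of HSPA14. For 10 other genes, 118 of 119 values did, with PFDN4 the exception. The median log2 fold change of chaperone members was -0.0188 under quantile normalization and -0.0036 with equal sums or medians, and it ranged from 0.0047 to 0.0395 with a library left out. HSPA8 turned to -0.0438 with equal sums, -0.045 with equal medians and -0.027 with quantile normalization, and ranged from -0.1651 to 0.0849 with a library left out. HSPA6 turned to -0.0299 with a pseudocount of 0.1, -0.0054 with equal sums, -0.0048 with equal medians and -0.0373 with quantile normalization, and ranged from -0.0877 to 0.1279 with a library left out. That row of HSPA14 ranged from -0.0966 to 0.0574, TCP1 from -0.0675 to 0.0884, DNAJB1 from -0.0604 to 0.0284 and HSPA1A from -2.9895 to 0.0804, also with a library left out. Lower BAG genes numbered 2 in place of 1 under equal sums, equal medians and quantile normalization (1 to 2 with a library left out). Higher HSP70 and HSP110 genes numbered 1 under equal sums and equal medians (1 to 3 with a library left out), and lower DNAJB genes 1 to 2. In the list of mitochondrial quality control 1 gene was lower with equal medians (0 to 1 with a library left out), and 1 other heat shock factor gene was higher once genes under a mean of 1 FPKM were dropped. Members numbered 12 to 14 lower and 17 to 22 higher with a library left out, and all called genes 4971 to 5371. The causes were not tested. Libraries with the same replicate number did not deviate together (correlations -0.0401, -0.021 and -0.1078), so the numbers were not taken as pairs. With the replicate block 31 members were called, without DNAJB2 and HSPA9, leaving 1 lower DNAJB gene and 1 higher HSP70 or HSP110 gene. Scaling moved the median of all genes from 0.0318 to between -0.0001 and 0.0088. At the inferred depth, 10 members under 1 FPKM could show only large differences, and 3 libraries a group limit every value.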
